A study of Mus musculus with 4 samples.

Results

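The Hes and Hey genes encode a family of basic helix-loop-helix (bHLH) transcriptional repressors. Members were taken by gene symbol, and all 9 that were looked for (Hes1, Hes5, Hes6, Hes2, Hes3, Hes7, Hey1, Hey2 and Heyl) had a line of their own in the deposited tables, out of 21828 genes analysed. The data are RNA-seq libraries of retinal cells from mice of the FVB/N strain that carry pHes1-EGFP, a transgene in which the promoter of Hes1 drives a destabilized green fluorescent protein. Retinas were dissociated and sorted by flow cytometry into EGFP-positive cells (pHes1_EPC) and EGFP-negative cells (pHes1_ENC) at postnatal day 1 (P1) and postnatal day 4 (P4), which gave 4 libraries, 1 for each fraction and age. All 4 groups carry the transgene and none was treated. The labels do not say how many animals went into a library. Because there is 1 library per group, no difference below has a replicate check and none was tested. Values are FPKM, reads scaled both to the length of the transcript and to the number of mapped reads. Levels are compared between genes and between libraries on this scale as deposited, and such comparisons are approximate. The libraries did not share an equal total, since summed FPKM ran from 277433 to 372016. Small differences between libraries can therefore change sign under other scalings. Where 4 values are listed in a row, they are the negative and the positive fraction at P1, then the negative and the positive fraction at P4. Genes that reached an FPKM of 1 in any library are called expressed (12941 genes), and 7 of the 9 members did so, all but Hes3 and Hes7. Differences are given on the log2(FPKM + 1) scale, which understates the change of low genes, and a gene is called higher or lower when it differs by more than 2-fold on that scale. Plain FPKM ratios are followed by the range that the 95% intervals of both libraries allow, which covers counting error only.

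In the vertebrate retina, Hes1 and Hes5 are the classical effectors of Notch signalling. A cleaved Notch receptor enters the nucleus, binds the DNA-binding protein RBPJ and switches these genes on, and their products repress proneural bHLH genes, which keeps progenitors from becoming neurons and favours the formation of Müller glia, the radial glia of the retina. Hey1, Hey2 and Heyl are a related Notch-responsive branch, best known from blood vessels and heart. Hes6 stands apart, since it is known to be induced by proneural factors and to oppose Hes1. Hes7 is the oscillating repressor of the somite clock, Hes3 is known from neural stem cells and the midbrain-hindbrain boundary, and Hes2 is the least studied of the group.

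The sequences upstream of the start sites are shown for the members present in the RefSeq promoter table, namely Hes5, Hey2, Hes7 and Hes6, because they place the letters recognized by RBPJ beside the levels described below. They are the 250 bases before the start in build GRCm38.p6, written 5′ to 3′ on the strand of the gene, and capitals mark GTGGGAA or its reverse complement, the RBPJ core, searched on both strands. The windows were chr4:154960673-154960922 on the plus strand for Hes5, chr10:30842784-30843033 on the minus strand for Hey2, chr11:69120203-69120452 on the plus strand for Hes7 and chr1:91413223-91413472 on the minus strand for Hes6.
Hes5: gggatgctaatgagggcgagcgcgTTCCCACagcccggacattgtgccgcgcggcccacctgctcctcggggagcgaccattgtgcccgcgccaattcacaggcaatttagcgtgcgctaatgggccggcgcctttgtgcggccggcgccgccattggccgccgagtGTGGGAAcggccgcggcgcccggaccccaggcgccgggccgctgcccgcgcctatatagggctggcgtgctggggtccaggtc
Hey2: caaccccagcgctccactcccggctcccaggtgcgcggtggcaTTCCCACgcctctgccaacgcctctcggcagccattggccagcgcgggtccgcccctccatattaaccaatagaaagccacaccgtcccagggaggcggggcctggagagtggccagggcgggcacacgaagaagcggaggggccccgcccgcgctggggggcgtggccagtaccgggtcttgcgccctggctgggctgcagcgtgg
Hes7: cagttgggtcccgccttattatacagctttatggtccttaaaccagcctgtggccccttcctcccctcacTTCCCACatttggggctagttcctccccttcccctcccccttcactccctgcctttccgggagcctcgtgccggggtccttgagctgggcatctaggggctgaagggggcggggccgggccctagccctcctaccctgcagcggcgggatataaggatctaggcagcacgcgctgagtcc
Hes6: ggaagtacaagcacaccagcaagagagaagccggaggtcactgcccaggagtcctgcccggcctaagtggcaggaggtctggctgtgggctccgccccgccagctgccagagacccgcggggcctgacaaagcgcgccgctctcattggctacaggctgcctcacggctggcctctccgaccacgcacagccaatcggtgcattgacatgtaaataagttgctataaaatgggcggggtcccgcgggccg
The Hes5 window held 2 matches, which began at -226 and -83 from the start, on opposite strands. The Hey2 window held 1 at -207 and the Hes7 window 1 at -180, and the Hes6 window held none. RefSeq lists another Hes6 start, 816 bases further upstream, and its window held none either. Among all 32851 promoters of this length, 5.42% held at least 1 match. The sites that Hes and Hey proteins are known to bind were searched in the same way. The N-box, CACNAG, was found once in the Hes7 window and once in the printed Hes6 window and occurs in 36.7% of promoters, whereas the class C site, CACGNG, was found 2 times in the Hes7 window, 1 time in the upstream Hes6 window and in 23.5% of promoters. Neither occurred in the Hes5 or Hey2 window. Hes5 and Hey2, whose windows carry RBPJ matches, were more than 2-fold higher in pHes1_EPC at both ages. Hes7, whose window also carries a match, was close to 0 in every library, and Hes6, whose windows carry none, was the most abundant member. Hes1, Hes2, Hes3, Hey1 and Heyl have no window here, and a link between matches and levels was not tested.

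The deposited tables place the genes in build mm9. Hes6 lies on chromosome 1 (93308060 to 93309799, minus strand), Hey1 on chromosome 3 (8663359 to 8667038, minus), Hey2 on chromosome 10 (30552165 to 30562589, minus), Hes7 on chromosome 11 (68933955 to 68936761, plus) and Hes1 on chromosome 16 (30065443 to 30067882, plus). The other 4 are on chromosome 4, where Heyl spans 122910799 to 122927113 (plus), Hes2 spans 151532976 to 151536578 (plus), Hes3 spans 151660081 to 151665771 (minus) and Hes5 spans 154335032 to 154336480 (plus). Hes2 and Hes3 are 123503 bases apart. The GENCODE annotation of that build gives each gene 3 to 5 exons. It places a transcript on the opposite strand over Hes5 (RP24-89N4.5) and over Hes7 (9130213A22Rik), and since the library protocol does not describe a step that keeps the strand, reads of these overlapping genes cannot be told apart.

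Hes6 was the most abundant member in every library. Its FPKM at P1 was 433 in pHes1_ENC and 456 in pHes1_EPC, and at P4 217 in pHes1_ENC and 635 in pHes1_EPC, which ranked it 30, 31, 149 and 43 among all genes. Hes5 was next throughout, followed by Hes1 in all libraries except P4 pHes1_ENC, in which Hey1 had the third place with 9.16 against 3.59 for Hes1. In both EGFP-positive libraries Hey2 and Heyl came after Hes1 and before Hey1. Hey2 (46.6) was above Heyl (30.6) at P4, whereas at P1 the intervals of Heyl (35.9) and Hey2 (34.9) overlapped. In the negative libraries the intervals overlapped for Hey2 (7.07) and Heyl (6.20) at P1, and for Hes1 (3.59) and Hey2 (3.39) at P4. Hes2, Hes3 and Hes7 came last everywhere, and the interval of Hes2 overlapped that of Hes7 in every library but P1 pHes1_ENC, while it lay above that of Hes3 in each.

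**Figure D1:**
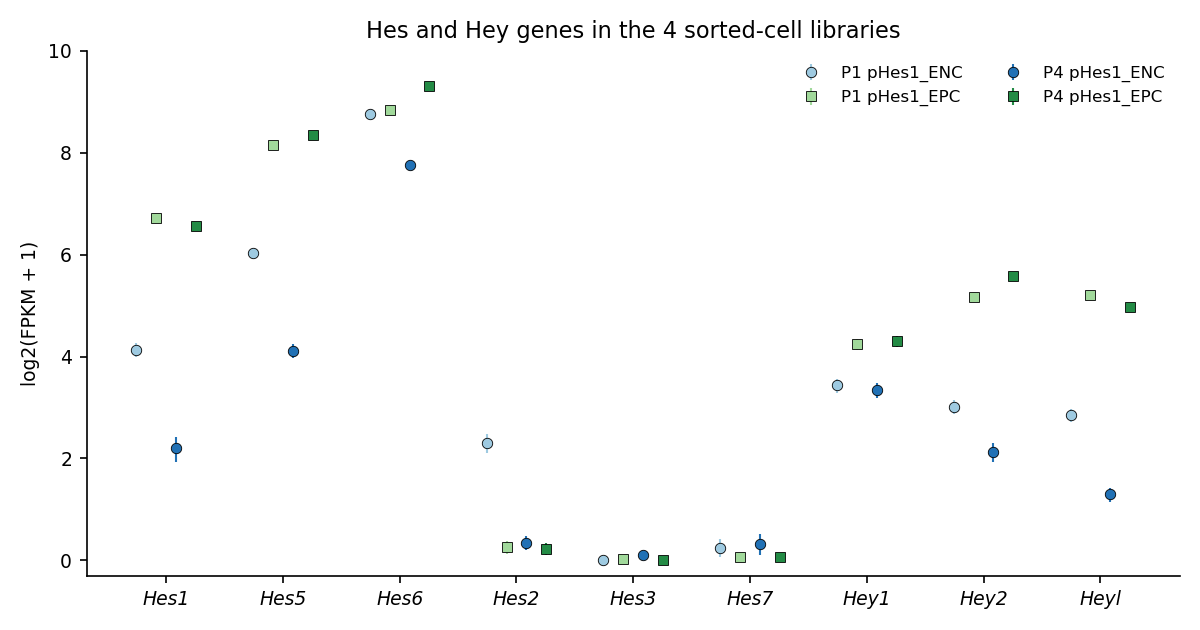
Level of each Hes and Hey gene as log2(FPKM + 1) in the 4 libraries (circles pHes1_ENC, squares pHes1_EPC, pale P1, dark P4). Bars are FPKM ± the half-width of its 95% interval, often smaller than the symbol. Hes1, Hes5, Hes6, Hey1, Hey2 and Heyl show both squares above both circles (the small P1 difference of Hes6 changes sign under other scalings), Hes6 has its lowest value in P4 pHes1_ENC, and Hes2 is above 1 FPKM in P1 pHes1_ENC only.

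The summed FPKM of the 9 genes at P1 was 542 in pHes1_ENC and 932 in pHes1_EPC, and at P4 251 in pHes1_ENC and 1148 in pHes1_EPC, so the positive library exceeded the negative one 1.72-fold at P1 and 4.57-fold at P4. Hes6 made up most of that sum in the negative libraries, with 80.0% at P1 and 86.3% at P4, and about as much as all others together in the positive libraries, with 48.9% and 55.3%. Hes5 contributed 12.0% and 6.49% in the negative libraries but 30.3% and 28.2% in the positive ones. Hes1 itself, whose promoter defines the sort, contributed 3.06% and 1.43% in the negative libraries and 11.2% and 8.15% in the positive ones. Without Hes6 the sum of the other 8 genes was 4.38-fold higher in the positive library at P1 and 14.9-fold higher at P4.

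**Figure D2:**
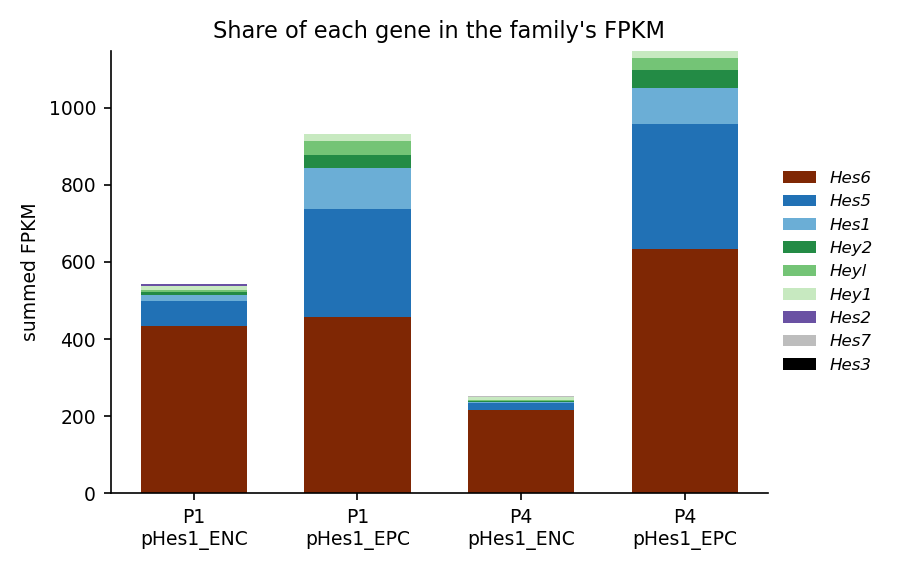
Summed FPKM of the 9 Hes and Hey genes in each library, with each gene as a coloured part of the bar. Hes6 fills 80.0% and 86.3% of the negative bars at P1 and P4 and 48.9% and 55.3% of the positive bars, where Hes5 adds 30.3% and 28.2%.

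The Notch effectors Hes1 and Hes5 served as the reference for the rest of the family. Hes1 had an FPKM of 16.6, 104.5, 3.59 and 93.5. EGFP was driven by its promoter, so its difference between the fractions is a description of the sort. Hes5 was not part of the gate and had 64.8, 282, 16.3 and 324. For both genes the positive libraries lay above both negative ones, by 2.59 (Hes1) and 2.11 (Hes5) on the log2 scale at P1 and by 4.37 and 4.23 at P4.

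Hes6, the antagonist of Hes1 that proneural factors induce, was nearly equal between the fractions at P1 and unequal at P4. Its log2 difference at P1 was 0.07, a ratio of 1.05 with a range of 1.00 to 1.10, and this small difference changed sign, to -0.01 when every library was rescaled to the same total and to -0.02 after quantile normalization. At P4 it was 2.93-fold higher in pHes1_EPC (range 2.75 to 3.08), a log2 difference of 1.55, which stayed between 1.06 and 1.34 under the 3 other scalings tried. The 4 libraries contributed between 3034 and 9187 reads to Hes6, as far as the widths of the intervals show, so counting error was small. Its level at P4 was 0.50 of the P1 level in pHes1_ENC (range 0.474 to 0.534) and 1.39 times the P1 level in pHes1_EPC (range 1.33 to 1.45). The P4 value in the negative fraction therefore lay below the other 3 and the P4 value in the positive fraction above them.

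Among the Hey genes, Hey2 and Heyl were much higher in the EGFP-positive cells at both ages and Hey1 less so. Hey2 had an FPKM of 7.07, 34.9, 3.39 and 46.6, with both positive libraries above both negative ones. The ratio of positive to negative was 4.93 at P1 (range 4.07 to 5.75) and 13.8 at P4 (range 10.7 to 16.7), and these ranges do not overlap. Heyl had 6.20, 35.9, 1.45 and 30.6, with ratios of 5.79 (range 4.94 to 6.52) and 21.1 (range 16.8 to 25.7). For comparison, the ratios of Hes5 were 4.35 at P1 (range 3.93 to 4.70) and 19.9 at P4 (range 16.7 to 22.4), so the range of Heyl lay above that of Hes5 at P1 and overlapped it at P4, while that of Hey2 overlapped it at P1 and lay just below it at P4. Hey1 had 9.81, 18.0, 9.16 and 18.8, so that its 2 positive libraries were nearly equal and its 2 negative libraries nearly equal. Its ratio was 1.84 at P1 (range 1.51 to 2.21) and 2.05 at P4 (range 1.66 to 2.49), ranges that overlap each other. With the added 1 the Hey1 difference at P4 was 0.96 and stayed short of the 2-fold call, although the plain ratio passed it. In bulk libraries, fewer cells that express a gene and less RNA of that gene per cell cannot be told apart.

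The remaining members were low. Hes2 had an FPKM of 3.94, 0.197, 0.271 and 0.174, so P1 pHes1_ENC stood alone. It was the only member higher in EGFP-negative cells by the 2-fold call, at P1, with a ratio of negative to positive of 20.0 (range 10.7 to 49.5), and at P4 the intervals of both fractions overlapped (ratio 1.55, range 0.540 to 5.10). The P1 negative value rests on about 155 reads and the other 3 on 13.4 to 18.1, as far as the intervals show. Its nearest neighbour, Espn, 6660 bases away, had 39.2, 174, 9.19 and 164, an opposite order between the fractions at P1. Hes7 had 0.191, 0.0501, 0.258 and 0.0506, with about 6.25 and 8.35 reads in the negative libraries and intervals that reach 0 in the positive ones. Hes3 was listed at 0 in P1 pHes1_ENC and P4 pHes1_EPC and had 0.0234 and 0.0724 in the other two libraries. For Hes3 and Hes7 no difference between any of the libraries was detectable at this depth.

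Counted together, 4 of the 9 members were more than 2-fold higher in pHes1_EPC at P1 (Hes1, Hes5, Hey2 and Heyl) and 5 at P4, when Hes6 joined them. The share of all genes that was higher in pHes1_EPC was 6.1% at P1 and 9.85% at P4, and the share of expressed genes 10.3% and 16.6%. At P1, 1 member (Hes2) was lower, against 6.79% of all genes and 11.5% of expressed genes. At P4, 0 members were lower, against 5.42% and 9.15%. The members' median difference was 0.81 at P1 and 1.55 at P4, against 0.02 and 0.15 over expressed genes. At P4 the share of higher genes depended on scaling, since 64.5% of all genes called either way were higher in pHes1_EPC as deposited and 47.9% to 53.2% after rescaling, but the 5 members called at P4 were the same in each case. The sort on the Hes1 promoter fixes the direction for Hes1, and the remaining members were chosen by name.

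**Figure D3:**
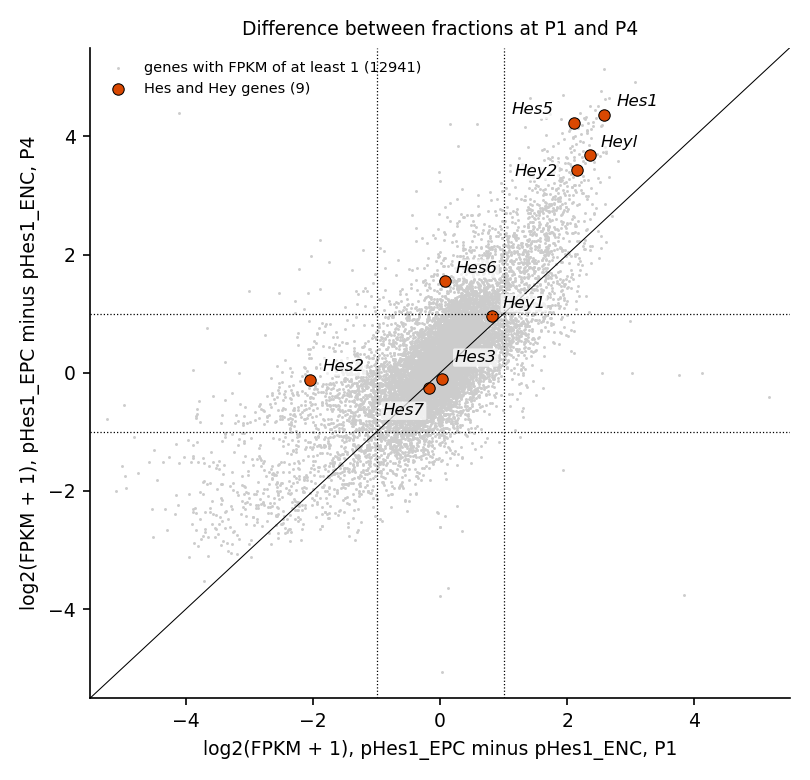
Log2(FPKM + 1) difference between pHes1_EPC and pHes1_ENC at P1 (horizontal) and P4 (vertical) for the 9 Hes and Hey genes (orange) over the 12941 expressed genes (grey). Dotted lines mark 2-fold and the solid line equality, and 10 grey genes lie outside the axes. Hes1, Hes5, Hey2 and Heyl lie beyond 2-fold at both ages and above the line, Hes6 beyond 2-fold at P4 alone (its P1 value of 0.07 changes sign under other scalings), Hes2 at P1 alone, and Hey1 just short of 2-fold.

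Between P1 and P4 the difference between the fractions grew by 1.78 for Hes1, 2.13 for Hes5, 1.47 for Hes6, 1.29 for Hey2, 1.33 for Heyl and 0.15 for Hey1, whereas that of Hes2 closed. These changes use the same 4 libraries as the fraction differences. Apart from Hey1, whose intervals overlapped between the ages in both fractions, the larger part of each change lay in the negative libraries. The level in pHes1_ENC changed by -1.94 for Hes1, -1.93 for Hes5, -1.55 for Heyl, -1.96 for Hes2, -0.996 for Hes6, -0.88 for Hey2 and -0.09 for Hey1 on the log2 scale. More than 2-fold lower at P4 in pHes1_ENC were 4 members (Hes1, Hes5, Heyl and Hes2), against 5.94% of all genes, with Hes6 just outside. The 1297 genes behind that share all lie among the 12941 expressed genes, so the share of expressed genes is larger. By the plain ratio Hey2 (2.09-fold lower at P4) passed 2-fold too, and Hes6 did so after rescaling to equal totals or quantiles. In pHes1_EPC 0 members were more than 2-fold lower at P4, against 2.57% of all genes (560, all of them expressed). The members' changes in pHes1_EPC ran from -0.22 (Heyl) to 0.48 (Hes6). The change of Hey2 in pHes1_EPC was 0.41 and kept its sign under other scalings (0.08 to 0.23). The signs were not fixed for Hes5, at 0.20 as deposited and -0.37 to 0.02 after rescaling, for Hes6, at 0.48 and -0.23 to 0.30, for Hey1, at 0.06 and -0.26 to -0.09, or for Hes7, at 0.00 and -0.01. In this comparison the median of the expressed genes was 0.17 as deposited and moved by -0.15 to -0.27 with rescaling, and 61.9% of genes called either way were higher at P4 as deposited and 31.9% to 44.3% after rescaling. Relative to that median, the positive-fraction changes were -0.33 for Hes1, 0.02 for Hes5, 0.30 for Hes6, -0.12 for Hey1, 0.24 for Hey2 and -0.40 for Heyl.

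**Figure D4:**
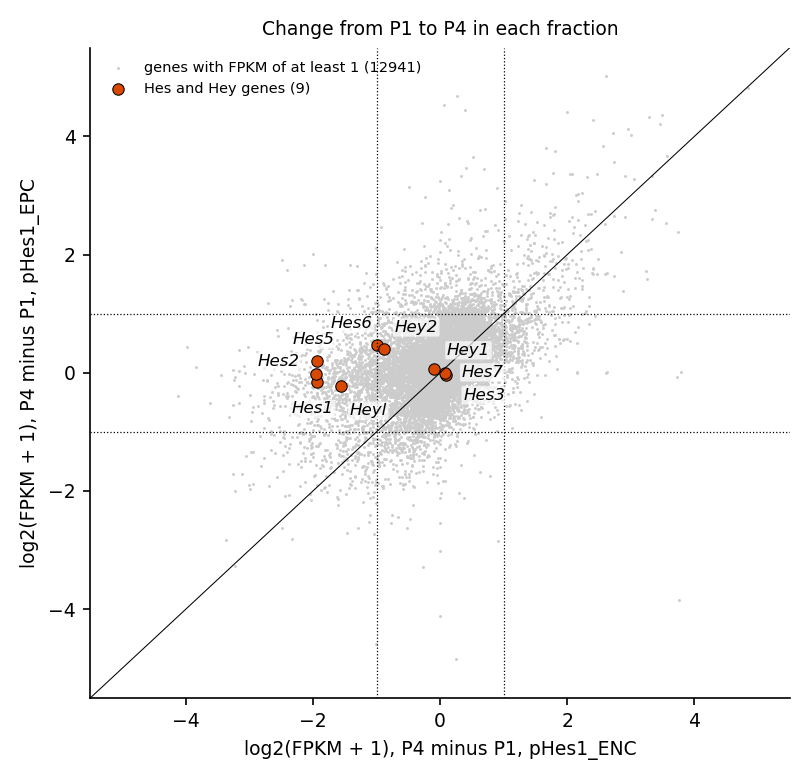
Change in log2(FPKM + 1) from P1 to P4 in pHes1_ENC (horizontal) and pHes1_EPC (vertical) for the 9 Hes and Hey genes (orange) over the 12941 expressed genes (grey), with dotted lines at 2-fold and 9 grey genes outside the axes. Hes1, Hes5, Hes2 and Heyl lie left of the 2-fold line for pHes1_ENC and Hes6 on it, while all 9 stay between -0.22 and 0.48 in pHes1_EPC, where the signs of Hes5, Hes6, Hes7 and Hey1 change under other scalings.

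The 4 values of each gene form a pattern, and likeness was measured as the Euclidean distance between centred log2(FPKM + 1) values over the 4 libraries, which are few points and all of 1 sorting experiment. Hes1 and Hes5 were 0.40 apart, Hes5 and Heyl 0.43, Hes1 and Heyl 0.53, Hey2 and Heyl 0.69, Hes5 and Hey2 0.84 and Hes1 and Hey2 1.09. Hes6 and Hey1 were 0.71 apart, and each was at least 1.99 from any of these 4. They were not near neighbours, since Hey1 ranked 685 by distance from Hes6 and Hes6 ranked 2159 by distance from Hey1. Heyl ranked 97 from Hey2, and Hey2 ranked 78 from Heyl. Among 8370 genes that reached an FPKM of 10, the nearest to Hes1 were Zfp36l1, an RNA-binding protein that promotes mRNA decay (0.22), Lfng, the glycosyltransferase that modifies Notch receptors (0.23), and Col23a1, a transmembrane collagen (0.25). The nearest to Hes5 were Hkdc1 (0.21), BC064078 (0.23) and Espn, an actin-bundling protein (0.23). For Heyl they were Nrarp, a Notch-induced feedback inhibitor (0.16), Pmp22, a membrane protein of myelin (0.17), and Mcam, a cell adhesion molecule (0.19).

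The nearest genes to Hey2 were Slc35f1 (0.13), Kcnj10, the potassium channel of Müller glia (0.15), and Aldh1a1, which makes retinoic acid (0.17). Kcnj10 had an FPKM of 3.01, 15.6, 0.879 and 20.7, the same order of libraries as Hey2. The nearest to Hes6 were Ddr1, a collagen receptor (0.10), Fbxo44, an F-box protein (0.13), and Ccnjl, a cyclin-like protein (0.14). Ddr1 had 123, 129, 66.2 and 193, which like Hes6 put P4 pHes1_ENC lowest and P4 pHes1_EPC highest. The nearest to Hey1 were Tra2b, a splicing regulator (0.05), Bcl2l11, which encodes the pro-apoptotic protein Bim (0.06), and Sav1, a scaffold of the Hippo pathway (0.07).

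The upstream part of the pathway was read from a list of 21 Notch receptors and transduction genes, of which 5 were higher and 1 lower in pHes1_EPC at P1, and 8 higher and 0 lower at P4. For this list and those below, the shares of expressed genes to compare with were 10.3% higher and 11.5% lower at P1. At P4 these shares were 16.6% higher and 9.15% lower. The median difference of the 21 genes was 0.07 at P1 and 0.43 at P4. The largest differences at P4 were those of Lfng (4.30), with an FPKM of 17.0, 86.8, 3.15 and 80.8 in the order used above, and of Nrarp (3.75), with 24.9, 122, 8.08 and 121. At the other end were Numbl, related to the Notch inhibitor Numb (-0.84), and the coactivator Maml1 (-0.18). The ligands were mixed, with P4 differences in both directions. Of 7 ligands and ligand-processing genes, 0 were higher and 3 lower in pHes1_EPC at P1, and 1 was higher and 3 lower at P4. The ligand Dll1 was even at P1, with 49.5 and 48.7, and separated at P4, with 13.1 in pHes1_ENC and 89.9 in pHes1_EPC (difference 2.69). Dll3 came next at P4 (0.69, short of 2-fold) but was lower in pHes1_EPC at P1 (-1.64). Mib1, the ubiquitin ligase that activates ligands, and Jag2 were lower in pHes1_EPC at P4 (-1.95 and -1.45).

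The proneural bHLH genes and their E-protein partners are the textbook targets and partners of this family. Of 14 in the list, 0 were higher and 8 lower in pHes1_EPC at P1, and 5 were higher and 4 lower at P4, and the median difference was -1.92 at P1 and -0.05 at P4. Neurog2, a proneural factor of neurogenic progenitors, had an FPKM of 74.3, 19.3, 13.2 and 66.7, so that its higher fraction changed. Neurod1 and Neurod4, which act in differentiating neurons, were lower in pHes1_EPC at both ages, with differences at P1 of -4.53 and -4.94, respectively, and at P4 of -2.31 and -1.94. Hes6 and the ligand Dll1 shared a small difference at P1 and a difference above 2-fold at P4. This was not particular to them, since other listed genes also passed 2-fold at P4 only, the astrocyte marker Pdgfra among them (0.39 and 1.25).

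Hes and Hey proteins recruit Groucho/TLE and histone deacetylase complexes. Of 12 such co-repressor genes, 0 were higher and 2 lower in pHes1_EPC at P1, and 1 higher and 3 lower at P4, with medians of -0.20 and -0.34. Tle1 was the one higher at P4, with an FPKM of 17.0, 31.1, 10.7 and 30.02 in the 4 libraries and a P4 difference of 1.41, and Tle4 came next (0.51). Tle2 had 8.56, 0.756, 28.7 and 3.82 (-2.63) and Tle6 was also lower (-1.95). Of the related bHLH-Orange genes, which share the Orange domain with Hes and Hey proteins, Bhlhe40 was higher in pHes1_EPC at both ages (0.600, 3.13, 0.324 and 3.40) and Bhlhe41 was lower at P4 (6.16 against 1.61), while Helt did not reach an FPKM of 1. Of the cyclin-dependent kinase inhibitors known as targets of Hes1, Cdkn1c was lower in pHes1_EPC at P1 (19.8 against 8.80) and higher at P4 (21.8 against 55.1), Cdkn1a was higher at P1 (2.09 against 6.54; P4 difference 0.87), and Cdkn1b, also called p27, differed by 0.46 and 0.88.

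**Figure D5:**
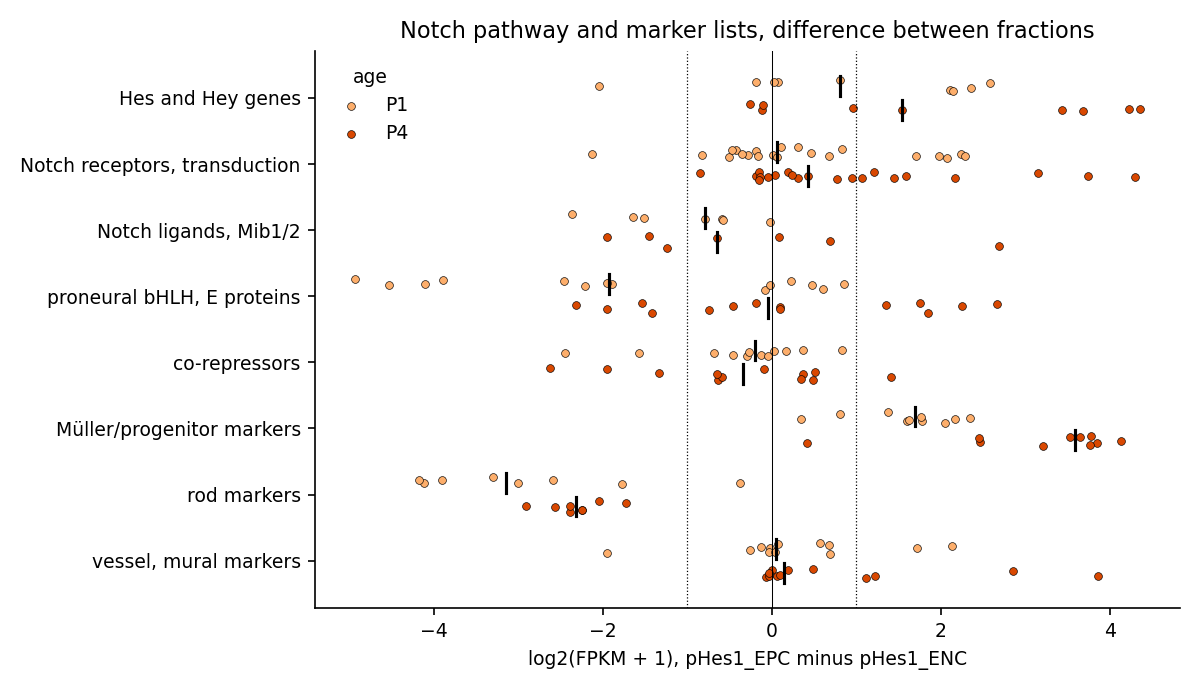
Log2(FPKM + 1) difference between pHes1_EPC and pHes1_ENC at P1 (pale) and P4 (dark) for each gene of 8 lists. Points are genes, short vertical bars are list medians and dotted lines mark 2-fold. The Hes and Hey median is 0.81 and 1.55, that of the Müller and progenitor markers 1.70 and 3.59, that of the rod markers -3.15 and -2.32 and that of the proneural list -1.92 and -0.05.

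Cell type markers moved with these differences, and their part in them was not tested. Of 10 Müller glia and progenitor markers, 8 were higher in pHes1_EPC at P1 and 9 at P4, with medians of 1.70 and 3.59 and summed FPKM of 521, 1611, 307 and 2642, from Sox8 (4.14) and Slc1a3 (3.85) down to Glul (2.47) and Apoe (2.45) at P4. The water channel Aqp4, a marker of mature Müller glia, was below 0.5 in all 4 libraries. Of 8 rod markers, 7 were lower in pHes1_EPC at P1 and 8 at P4, and their summed FPKM was 694, 42.1, 3831 and 750. The P4 positive library thus held more rod transcript than the P1 one. Among the rod markers the P4 differences ran from -2.90 (Pde6b) and -2.57 (Nr2e3) to -2.05 (Gnat1) and -1.72 (Gngt1).

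Because Hey genes are also known from vessels, 12 vessel and mural cell markers were read beside them. Of these, 2 were higher and 1 lower in pHes1_EPC at P1, and 4 higher at P4, and their summed FPKM was 69.7, 228, 19.7 and 215. The growth factor receptor Kdr held the largest part of that sum in each library, with 46.9, 209, 12.0 and 189. The tight junction gene Cldn5 had 16.3, 3.49, 2.59 and 4.06, and Egfl7, a gene of the vessel wall, had 2.19, 9.52, 1.27 and 15.4, while Acta2 differed by 0.10 at P4. The defining endothelial genes Pecam1, Cdh5, Tek and Tie1 and the pericyte gene Rgs5 were below 0.5 in every library. Pdgfrb, Flt1 and Cspg4 were low, with larger values in the positive fraction, the same direction as Hey2 and Heyl. At P1 they stayed short of 2-fold, with differences of 0.68, 0.69 and 0.57, and so did Cspg4 at P4 (0.20). The pericyte receptor Pdgfrb had 0.670, 1.68, 0.0829 and 1.52, the endothelial receptor Flt1 had 0.0658, 0.715, 0.110 and 1.41, and Cspg4 had 0.0974, 0.632, 0.0501 and 0.206, and Pdgfrb and Flt1 were among the 4 called at P4. Microglial markers summed to 2.61, 13.5, 8.26 and 12.8, and 4 of 8 were higher in pHes1_EPC at P1 and 0 at P4, where the differences ran from 0.88 (C1qc) and 0.53 (C1qb) to 0.21 (C1qa) and 0.15 (Cx3cr1) among the expressed ones, and were 0.02 for Itgam and -0.07 for Aif1, which were not expressed. Astrocyte markers summed to 9.06, 7.32, 28.0 and 59.2, and 2 of 6 were higher at P4, Pdgfra (1.25) and Aldoc (1.06), while Pax2 (-0.05) and Gfap (-0.25) were not.

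Of 10 ganglion, amacrine and horizontal cell markers found in the tables, 5 were lower in pHes1_EPC at P1 and 2 at P4, with summed FPKM of 64.8, 16.6, 15.0 and 7.69. P1 pHes1_ENC, the library in which Hes2 was highest, also had the highest sum of this list. This was not particular to the list, since the vessel marker Cldn5 was highest in that library too, and a link to Hes2 was not tested. Slc32a1, the vesicular GABA transporter of amacrine and horizontal cells, had 20.4, 0.454, 2.84 and 0.636 (P4 difference -1.23), and Onecut1, a horizontal cell factor, was 3.41, 0.259, 1.41 and 0.0238 (-1.23). The ganglion cell genes Rbpms and Pou4f1 differed by 0.08 and -0.33 at P1, short of 2-fold, and by 0.60 and 0.04 at P4.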

How the data were processed

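Total RNA was extracted from sorted pellets, and cDNA was made with random primers and sequenced as 36-base single-end reads. The submitters' processing notes name bcl2fastq 1.8.4, TopHat2 2.0.8b, Cufflinks 2.1.1 and build mm9. The deposited values are FPKM per gene with the lower and upper FPKM bounds of a 95% interval, as Cufflinks wrote them for the authors. TopHat2 allowed up to 50 positions per read, so reads of near-identical genes can be shared. Read counts were not used here and the depth is unknown. Reads behind a value were estimated from the interval width, and the FPKM per estimated read varied by 1.08- to 1.95-fold within each of the 7 members that reached an FPKM of 1. For Hes1, Hes5, Hes6 and Hey2, 13 of 36 FPKM values lay above their own upper bound, by nearly the same factor in each library for Hes5 and Hes6 (1.14 to 1.18 times the midpoint), so figures centre the half-width on the FPKM. Ratio ranges divide the lower bound of one library by the upper bound of the other, and the reverse. These intervals cover counting error only.

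Tables were joined by gene, start site group and locus (23021 lines). Small RNA lines (787) were left out, the highest line was kept for 235 symbols with several, and 21828 genes remained, of which 11458 to 12108 per library had an FPKM of at least 1. Summed FPKM ran from 277433 to 372016. Differences were taken on log2(FPKM + 1), and calls used more than 2-fold. With 1 library per group no test was run. Alternatives were a pseudocount of 0.1, the plain ratio, a floor of FPKM 1 for the higher value, lines of a symbol summed, intervals that do not overlap, and 3 scalings of the FPKM (to equal library totals, by median of ratios, by quantiles). The members and gene lists were chosen with earlier results of these data known. All members were described, and from each list up to 2 genes with the largest and 2 with the smallest P4 difference were named among those with an FPKM of at least 1 in any library, besides the 3 vessel markers with the highest FPKM, the low vessel, pericyte and microglial markers and Aqp4 (named after their values were seen), and the 3 genes nearest in pattern to each member with an FPKM of at least 10. A gene that this rule picks is not reported here. Promoters came from RefSeq (GRCm38.p6) and were used for their letters only. Python 3.11.15, numpy 2.4.6, pandas 2.3.3 and matplotlib 3.10.9 were used, and the calling was tested on simulated data with 200 changed genes.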

Additional observations from a re-analysis of the deposited data

Results flagged for a closer look

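Hes5, Hes6 and Hey2 changed in opposite directions between P1 and P4 in the EGFP-negative and EGFP-positive libraries, and this difference between the fractions was not tested because each group has 1 library. The change in pHes1_EPC exceeded that in pHes1_ENC by 2.13 for Hes5, by 1.47 for Hes6 and by 1.29 for Hey2 on the log2(FPKM + 1) scale, which was more than in 98.3%, 94.5% and 92.5% of expressed genes. Hes2, Hes1 and Heyl, which were not flagged, stood at 97.6%, 96.9% and 93.0% by the same measure. In pHes1_EPC the higher value at P4 depended on scaling for Hes5 (-0.37 to 0.02 under the other scalings) and for Hes6 (-0.23 to 0.30). For Hey2 the sign was kept but the size was not (0.41 as deposited and 0.08 to 0.23).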

How the results depend on the processing

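The counts of members called higher in pHes1_EPC (4 at P1 and 5 at P4) and lower at P4 in pHes1_ENC (4) stayed within 1.5 times of these values under every alternative tried. Some of these alternatives could not change a call. Summing lines had no effect because each of the 9 members has 1 line. The floor had none because a call above 2-fold already needs an FPKM above 1. Hey1 was added at P4 by a pseudocount of 0.1, by the plain ratio and by intervals that do not overlap, which brought that count to 6. Intervals that do not overlap added Hes6 and Hey1 at P1 (6). In pHes1_ENC, Hey2 was added by a pseudocount of 0.1 and by the plain ratio (5), Hes6 by equal totals and by quantiles (5), and both by intervals (6). The count of members lower in pHes1_EPC at P1 was 2 in place of 1 by the plain ratio, and at P4 it was 1 in place of 0 both with a pseudocount of 0.1 and by the plain ratio. The added member was Hes7 in these 3 cases, at FPKM under 0.3. By intervals that do not overlap, 2 members (Hes1 and Heyl) were lower at P4 than at P1 in pHes1_EPC in place of 0, since that rule asks for no fold. Of 106 single differences recomputed, 77 moved by less than the interval allows and 29 by more. The 77 include every difference recomputed with lines summed, which could not move, so that count is inflated. No paired analysis was possible because the labels give no replicate numbers and each group has 1 library, and no library could be left out. Differences of Hes2, Hes3 and Hes7 are limited by few reads.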
